A study of Sus scrofa with 35 samples.

Results

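F1 pigs and Large White (LW) pigs kept in thermoneutral (TN) conditions were compared through the mRNA of their whole blood. The samples were the 6 blood arrays labelled F1 at 24 °C and the 6 labelled LW at 24 °C, chosen by title, so 12 of the 35 arrays of the series. F1 pigs were the cross between LW, a commercial European breed, and Creole (CR), a local breed of the Caribbean. All 12 were castrated male growing pigs raised on 1 station in Guadeloupe, with 1 one-colour Agilent array of porcine 60-base probes per pig. The labels give no age. According to the methods of the study, TN pigs were slaughtered before the temperature was raised, and blood was taken at exsanguination into tubes that preserve RNA. The 6 F1 and 6 LW pigs under heat stress (HS, 30 °C in the sample labels and 32 °C in the protocol) were used as a second contrast of the same breeds, in other pigs. Sire, dam, litter, pen and day of slaughter are not in the labels, so the tests treat pigs as independent, which littermates are not, and the part of family or day in a difference between breeds was not tested. By the methods of the study, each breed came from 3 blocks of littermates spread over its pens of both climates, so a group of 6 stands for few litters and TN and HS pigs of a breed are littermates.

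Whole blood is a mixture. Nucleated white cells, platelets and young red cells all contribute RNA, and reticulocytes, which carry globin mRNA, can supply much of it. T cells, B cells and cytotoxic lymphocytes, neutrophils, eosinophils and basophils each have marker genes whose level in whole blood moves with the share of those cells. In bulk blood, fewer cells of a type and less RNA per cell cannot be told apart. The tissue was checked on 20 marker genes, of which 18 were in the table and 16 had a probe well above background in all 12 pigs. The beta-globin gene HBB was at a log2 level of 17.57 ± 0.25 (SD, n = 6) in F1 and 17.53 ± 0.19 in LW pigs, and the neutrophil gene S100A8 at 12.12 ± 1.78 and 11.97 ± 1.62.

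Levels below are the log2 values of the authors' normalized table (39072 probes), and a difference is the F1 mean minus the LW mean on that scale, so that 1 is a 2-fold difference. Pearson correlations across probes were 0.949 to 0.986 between F1 TN arrays (median 0.975), 0.962 to 0.99 between LW TN arrays (median 0.978) and 0.937 to 0.989 between arrays of the 2 groups (median 0.972). These are across probes of single pairs of arrays, and probes are not independent replicates.

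The raw signal of the arrays differed between the groups before any normalization. The 75th percentile of the processed intensity, from which the scanner software had subtracted the background, was 149.9 ± 28.3 (SD, n = 6) in F1 TN pigs and 203.7 ± 30.9 in LW TN pigs. It ran from 112 through a median of 152 to 186 in F1, and from 167 through 199 to 250 in LW. All 6 F1 pigs were below the mean of the LW pigs, but the ranges overlapped. On the log2 scale the difference was -0.45 (two-sided exact permutation test, p = 0.0152, adjusted p = 0.127 over 9 array measures). F1 was the lower group on all 4 slides that held both groups, by 0.05 to 0.93, and the difference with slide as a block was -0.43. The arrays had been scanned on 1 day.

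In HS pigs the same measure lay the other way, at 237.9 ± 35.6 in F1 (n = 6) and 202.1 ± 29.6 in LW (n = 6). The difference between breeds therefore differed between TN and HS by -0.68 on the log2 scale (exact permutation of breed labels within each climate, p = 0.0024, adjusted p = 0.0108). The percentage of probes well above background followed it, at 60.02 ± 3.35% in F1 TN and 63.7 ± 2.80% in LW TN pigs (exact permutation test, p = 0.0693, adjusted p = 0.156). The share of intensity in the 5 globin probes was 0.425 ± 0.106% in F1 TN and 0.327 ± 0.0472% in LW TN pigs (exact permutation test, p = 0.0649, adjusted p = 0.156). The 10 brightest probes held 6.13 ± 0.774% of the intensity in F1 TN and 5.33 ± 0.654% in LW TN pigs. F1 TN arrays were thus dimmer at the 75th percentile with a larger mean share in the brightest probes, and none of these TN differences passed the adjusted test.

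The control measures of the arrays were closer between the groups, and whether they depend on the RNA of the blood sample was not tested. The spike-in probes, RNA of known amount added to each sample, had a mean log2 intensity of 10.21 ± 0.15 in F1 TN and 10.25 ± 0.27 in LW TN pigs (exact permutation test, p = 0.810). The negative control spots were at 4.76 ± 0.07 and 4.72 ± 0.06, and the local background at 18.7 ± 2.07 and 20.5 ± 3.45 intensity units. The first principal component of the log2 table, which held 33.2% of the variance over the 35 pigs, also separated the means, at -55.3 ± 29.6 in F1 TN and -12.6 ± 18.8 in LW TN pigs (exact permutation test, p = 0.0281, adjusted p = 0.127).

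**Figure D1:**
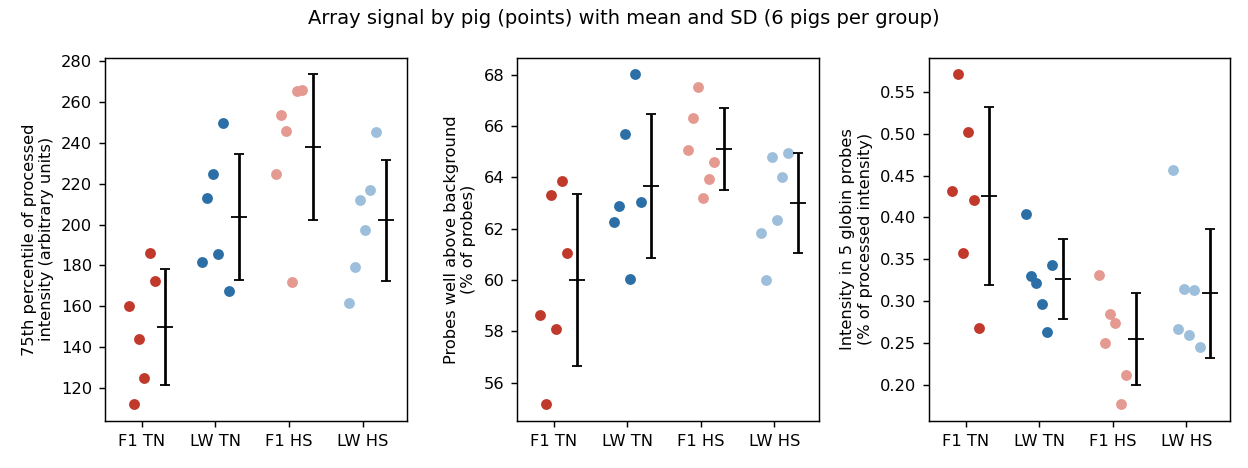
Array signal by pig in F1 and LW pigs under TN and HS conditions: the 75th percentile of processed intensity in arbitrary units, the percentage of probes well above background and the percentage of processed intensity in the 5 globin probes. Points are pigs and bars are the mean and SD of 6 pigs. F1 TN pigs have the lowest mean 75th percentile (149.9) and the highest mean globin share (0.425%) of the 4 groups.

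No probe was differentially expressed between F1 and LW pigs in TN conditions. Of 39072 probes, 0 (0.0%) had an adjusted p under 0.05 in limma, and the smallest adjusted p was 0.262. An unadjusted p under 0.05 was found for 6702 probes (17.2%), of which 4005 (10.3%) were higher and 2697 (6.9%) lower in F1. The 2 groups of 6 pigs did not overlap for 328 probes (0.839%), 210 (0.537%) of them higher and 118 (0.302%) lower in F1. Differences were small, with a median size of 0.18 over all probes, 0.40 over the 6702, and a median standard error (SE) of 0.15. A difference of at least 2-fold was measured for 92 probes (0.235%).

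The count of 6702 moved with the array signal. With the log2 75th percentile of each array as a covariate, 1022 of 39072 probes had an unadjusted p under 0.05 (smallest adjusted p 0.9999 in limma). That is fewer than chance alone gives at this threshold. With the mean level of the red cell gene lists as a covariate 4204 had such a p (smallest adjusted p 0.439 in limma). Leaving out LW TN replicate 3 gave 3661 and leaving out F1 TN replicate 5 gave 8407. The array signal and breed overlap in these 12 pigs, and the part of the signal in the differences of single probes was not tested beyond these fits.

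The same contrast in HS pigs called 3 probes (0.00768%), and 3216 (8.23%) had an unadjusted p under 0.05. None was called in both climates. The probe named MTRF1, a mitochondrial translation release factor, was the HS call with a gene symbol by the naming used here, at a difference of -0.83 in HS and -0.18 in TN pigs. The difference of the breed contrasts between TN and HS was called for 0 probes (0.0%; smallest adjusted p 0.122 in limma), while 8874 (22.7%) had an unadjusted p under 0.05. The HS difference had the sign of the TN difference for 17.1% of these 6702 probes and for 33.3% of all 39072. These 2 contrasts share no pig but, by the design, the same litters.

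Over gene means, 0 of 9329 genes (0.0%) passed the adjusted test (smallest adjusted p 0.253 in limma), 1641 (17.6%) had an unadjusted p under 0.05, and 81 (0.868%) did not overlap between the groups. Of these 81, 59 (0.632%) were higher and 22 (0.236%) lower in F1. In HS pigs 776 genes (8.32%) had an unadjusted p under 0.05 and 0 passed the adjusted test, and the difference between climates had 2231 (23.9%) and 0. A gene mean differed by at least 2-fold for 11 genes (0.118%).

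**Figure D2:**
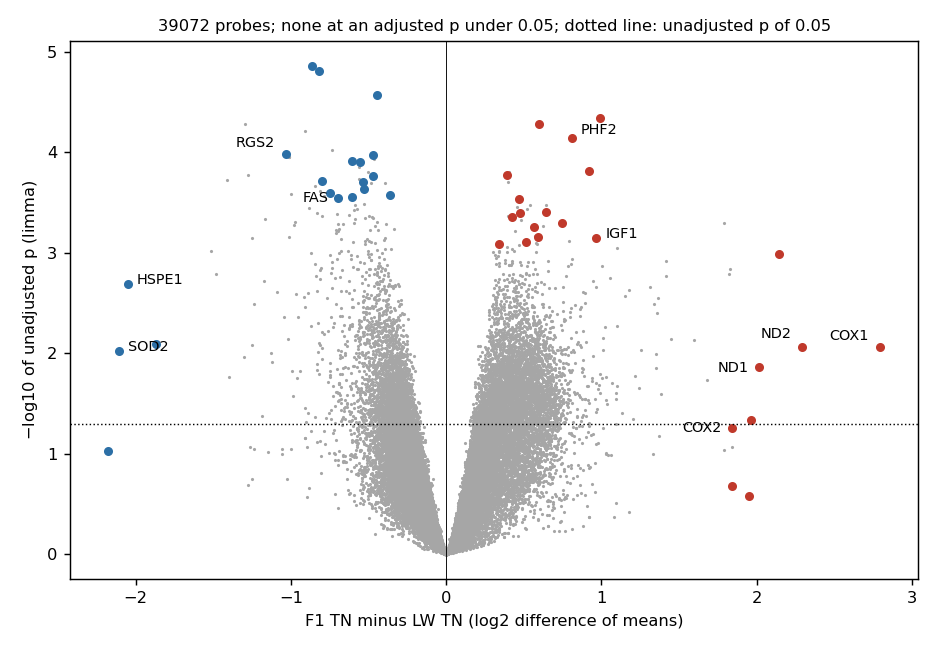
Difference between F1 TN and LW TN pigs (log2, x axis) against the negative log10 of the unadjusted limma p (y axis) for 39072 probes. Larger red (higher in F1) and blue (lower in F1) points are the probes of smallest p and the 12 largest differences. 0 probes had an adjusted p under 0.05, and the largest differences, such as COX1 at +2.79, were not those of the smallest p.

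The 12 genes of smallest p in each direction were taken, by a single probe each. All 24 had an adjusted p between 0.262 and 0.268 in limma, so their values are given as measured differences. Groups did not overlap for 8 of the 24, 3 higher and 5 lower in F1, where the rule used the p of the same contrast. In all 24 genes every F1 pig lay on one side of the LW mean. In HS pigs, 10 of the 12 genes higher in F1 TN were below 0, and 7 of the 12 lower in F1 TN were above 0.

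Chromatin genes were among both sets. PHF2, a histone demethylase, had the smallest p of the genes higher in F1. Its level ran from 9.49 through a median of 10.07 to 10.29 in F1 and from 8.61 through 9.22 to 9.56 in LW pigs. The difference was +0.81 (SE 0.18), and the lowest F1 pig lay just below the highest LW pig. PHF19, an accessory subunit of Polycomb repressive complex 2, was at 5.81 to 6.19 (median 6.01) in F1 and 5.25 to 5.81 (median 5.55) in LW pigs, a difference of +0.48 (SE 0.12), with no overlap by a narrow gap at 5.81. RNF20, a ubiquitin ligase for histone H2B, was lower in F1, at 6.83 to 7.31 (median 7.06) against 7.35 to 8.05 (median 7.49), again with no overlap. Its difference was -0.47 (SE 0.11), and all 5 of its probes were below 0.

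The largest named difference in each direction was that of a signalling gene. RGS2, which speeds GTP hydrolysis by the G protein Gq and so ends receptor signals, was at 10.49 to 11.80 (median 11.13) in F1 and 11.47 to 12.47 (median 12.18) in LW pigs. The difference was -1.03 (SE 0.23), the lowest LW pig lay within the F1 range, and all 4 RGS2 probes were below 0. It was one of 4 named genes with an unadjusted p under 0.05 in HS pigs, where it stood at -0.70. IGF1, insulin-like growth factor 1, was at 7.27 to 9.43 (median 7.85) in F1 and 6.76 to 7.54 (median 6.93) in LW pigs. Its difference of +0.97 (SE 0.26) includes F1 TN replicate 5, which stood alone at 9.43 above 8.04 in the next pig, and all 3 IGF1 probes were above 0.

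RAMP1, a receptor partner that makes the receptor for calcitonin gene-related peptide, differed by +0.65 (SE 0.16), with its second probe at +0.69. KCNMB2, a subunit of calcium-activated potassium channels, was at 6.61 to 7.0 in F1 and 5.92 to 6.50 in LW pigs with no overlap, a difference of +0.52 (SE 0.14). ARHGAP24, a GTPase-activating protein, differed by +0.39 (SE 0.09), also with no overlap. RAP1A, a small GTPase of integrin adhesion, was at 9.89 to 10.62 in F1 and 10.52 to 11.20 in LW pigs, a difference of -0.61 (SE 0.14), and all 7 of its probes were below 0.

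Genes of cell death, transport and the cytoskeleton were named among the lower 12. FAS, the death receptor that ends activated lymphocytes, was at 8.15 to 8.49 (median 8.28) in F1 and 8.45 to 9.74 (median 9.05) in LW pigs, a difference of -0.70 (SE 0.17), with all 3 probes below 0. CYCS, cytochrome c of the respiratory chain and of apoptosis, differed by -0.80 (SE 0.19), with 12 of 13 probes below 0. MYO5A, a motor for vesicles, was at 6.48 to 6.74 in F1 and 6.84 to 7.07 in LW pigs. The 2 groups did not overlap there, and the difference was -0.36 (SE 0.09), against +0.24 in HS pigs. The probe of ARPC4, a subunit of the actin-branching Arp2/3 complex, differed by -0.47 (SE 0.11), but 1 of the 3 ARPC4 probes had that sign, so the gene as a whole gives no single direction.

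Of the remaining lower genes, EBAG9, an inhibitor of secretion in cytotoxic lymphocytes, differed by -0.75 (SE 0.18) with all 4 probes below 0 and stood at +0.42 in HS pigs. DDX20, a helicase of the SMN complex, differed by -0.61 (SE 0.15) with no overlap and 3 of 3 probes below 0. MITD1 (-0.53), which acts in cytokinesis, and IFT52 (-0.54), of intraflagellar transport, did not overlap either. ZNF251, a zinc finger gene, differed by -0.55. Of the remaining higher genes, LOC100525024 differed by +0.75, STARD10, a lipid transfer protein, by +0.59, and PLA2G1B, a secreted phospholipase A2, by +0.57. CHODL differed by +0.47, MDFI, an inhibitor of myogenic transcription factors, by +0.42 and TMEM97 by +0.34. The size of several of these differences depended on the scaling. With processed intensities scaled on the 75th percentile LOC100525024 stood at +1.14, ARHGAP24 stood at +1.02, CHODL and MDFI at +0.95, PHF19 at +0.99, PLA2G1B at +1.1 and MITD1 at -0.89.

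Some of these probes have a second probe of the same 60 bases on the array, which shows how well a reading of the same sequence repeats. It does not show how well 1 probe stands for its transcript. The copies of the EBAG9 and FAS probes were at -0.75 and -0.70, equal to the named ones. The copies of the MDFI and PLA2G1B probes were at +0.16 and +0.22, less than the +0.42 and +0.57 named above. Over 1286 pairs of identical probes in the table, the F1 minus LW differences were a median of 0.05 and a 90th percentile of 0.15 apart. The share of pairs of the same sign was 83.4% for 475 pairs of a mean level under 7 and 94.8% for the 811 others. The MDFI and PLA2G1B probes have levels under 7, and the rule took the probe of smallest p of each gene.

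**Figure D3:**
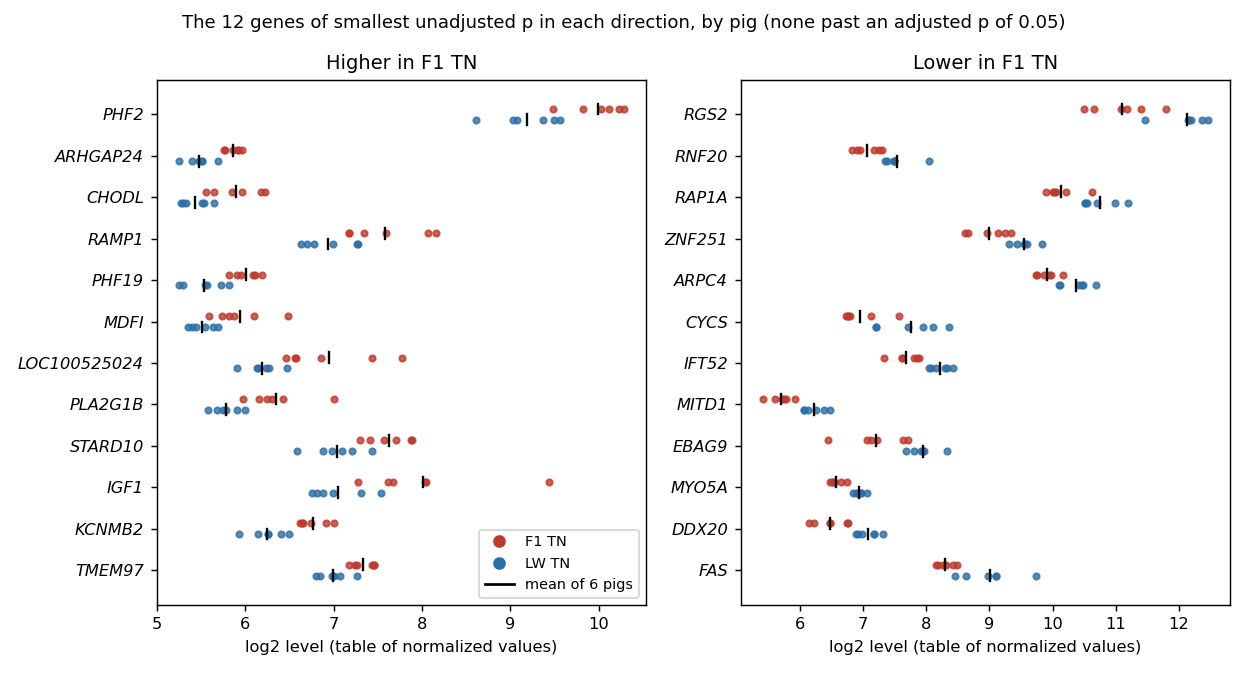
Log2 level of the 12 genes of smallest unadjusted p in each direction, with a point for each of the 6 F1 TN (red) and 6 LW TN (blue) pigs and a bar at each mean. The groups do not overlap for ARHGAP24, PHF19, KCNMB2, RNF20, IFT52, MITD1, MYO5A and DDX20, and 0 of the 24 passed an adjusted p of 0.05.

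Of the 39072 probes, 19993 had no gene name in the files and tables used. The 3 of smallest p in each direction are printed with the sequence of the probe, 5′ to 3′, since that is the one identity they have. The first 3 were higher and the last 3 lower in F1.
A_72_P359273: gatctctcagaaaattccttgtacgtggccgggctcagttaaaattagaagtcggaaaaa
A_72_P032336: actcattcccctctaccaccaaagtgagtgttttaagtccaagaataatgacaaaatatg
A_72_P152151: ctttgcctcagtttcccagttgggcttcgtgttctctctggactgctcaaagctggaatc
A_72_P135376: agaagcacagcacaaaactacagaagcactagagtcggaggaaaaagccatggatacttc
CUST_480_PI427286967: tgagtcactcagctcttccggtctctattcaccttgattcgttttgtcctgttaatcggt
A_72_P325853: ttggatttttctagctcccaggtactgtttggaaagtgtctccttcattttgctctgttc

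A_72_P359273 was at 5.74 to 7.17 in F1 and 5.03 to 5.53 in LW pigs, a difference of +0.99 (SE 0.21), and was well above background in 4 of the 6 LW pigs, and stood at +2.27 when processed intensities were scaled on the 75th percentile. A_72_P032336 differed by +0.60 (SE 0.13) and A_72_P152151, at 9.84 to 11.51 against 9.23 to 9.74, by +0.92 (SE 0.21). A_72_P135376, described in the files as similar to a centrosomal protein, was at 6.95 to 7.92 in F1 and 7.99 to 8.60 in LW pigs, a difference of -0.86 (SE 0.17). The 2 groups of A_72_P359273, A_72_P152151 and A_72_P135376 did not overlap. CUST_480_PI427286967 differed by -0.82 (SE 0.16). A_72_P325853 was well above background in 1 of 6 F1 and 5 of 6 LW pigs, so the size of its difference is not fixed by these data, and it was -0.45 in the table and -1.70 with the 75th percentile scaling.

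A pair of unnamed probes passed the adjusted test in a fit of these 12 TN pigs alone, without the arrays of the other groups. Both were higher in F1.
A_72_P066171: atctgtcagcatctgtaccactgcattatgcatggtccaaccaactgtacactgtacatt
A_72_P234707: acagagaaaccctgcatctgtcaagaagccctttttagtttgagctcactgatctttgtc
A_72_P066171 was at 6.15 to 7.69 (median 7.06) in F1 and 4.96 to 5.55 (median 5.23) in LW pigs, and was well above background in 6 of 6 F1 and 1 of 6 LW pigs. With most LW pigs near background the size of the difference is not fixed by these data, and it was +1.79 (SE 0.46) in the table and +4.11 with the 75th percentile scaling. A_72_P234707 was at 8.26 to 9.16 (median 8.78) in F1 and 7.33 to 7.81 (median 7.55) in LW pigs, a difference of +1.15 (SE 0.35). Neither had overlapping groups, and HS pigs stood at +1.1 and +0.12.

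The 2 largest differences of the table, in size, belonged to probes of mitochondrially encoded genes. The mitochondrial genome encodes 13 proteins of the respiratory chain and ATP synthase, which blood cells with mitochondria transcribe at high levels. The 13 genes had 127 probes, chosen here after their values were seen, and all 127 were well above background in all 12 pigs. Their median difference was +0.03, from -0.50 to +2.79. An unadjusted p under 0.05 was found for 10 probes higher and 0 lower in F1, and 6 differed by at least 2-fold.

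One of 25 COX1 probes, A_72_P762153, was at 11.29, 12.21, 13.21, 11.49, 13.54 and 12.89 in F1 pigs 1 to 6 and at 10.94, 12.84, 7.04, 8.80, 9.23 and 9.01 in LW pigs 1 to 6. The difference was +2.79 (SE 1.0; limma adjusted p 0.268), with +3.62 in HS pigs. LW replicates 1 and 2 were within or close to the F1 range and replicates 3 to 6 far below it. The other 24 COX1 probes were within 0.6 of 0. ND2, ND1 and COX2 also had probes of a large difference, and ND2 and ND1 more than 1. ND2 A_72_P719508 was at 12.06 to 13.24 in F1 and at 12.33, 13.23, 8.50, 9.55, 10.33 and 9.67 in LW pigs 1 to 6, a difference of +2.29 (SE 0.82). ND1 A_72_P745561 was at 11.00 to 12.22 in F1 and at 11.17, 12.32, 7.99, 9.09, 9.66 and 9.18 in LW pigs 1 to 6, a difference of +2.02 (SE 0.77). COX2 A_72_P746371 was at 11.56 to 12.42 in F1 and at 11.34, 12.43, 8.55, 9.27, 9.86 and 9.27 in LW pigs 1 to 6, a difference of +1.84 (SE 0.93). In all 4 the same 4 LW pigs were low and the same 2 were not.

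Each of these probes overlaps a near-identical neighbour on the array. The pairs are printed because probes of nearly the same sequence gave differences of unequal size. Capitals mark the longest run of bases that both probes of a pair share.
COX1 A_72_P762153: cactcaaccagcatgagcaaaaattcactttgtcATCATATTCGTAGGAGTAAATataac
COX1 A_72_P721538: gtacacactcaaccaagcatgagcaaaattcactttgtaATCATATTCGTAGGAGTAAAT
ND2 A_72_P719508: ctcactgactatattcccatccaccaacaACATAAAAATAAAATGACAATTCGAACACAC
ND2 A_72_P727968: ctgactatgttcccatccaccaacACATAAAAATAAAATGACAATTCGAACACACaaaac
ND1 A_72_P745561: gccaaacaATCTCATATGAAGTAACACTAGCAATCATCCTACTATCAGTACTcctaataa
ND1 A_72_P739924: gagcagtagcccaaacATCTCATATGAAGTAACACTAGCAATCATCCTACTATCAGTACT
COX2 A_72_P746371: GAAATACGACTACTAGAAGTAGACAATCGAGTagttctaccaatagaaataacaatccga
COX2 A_72_P751248: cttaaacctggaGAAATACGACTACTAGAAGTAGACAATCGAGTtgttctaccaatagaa

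The COX1 neighbour A_72_P721538, which shares 53 matched bases in an alignment with 1 substitution and 2 single-base gaps, differed by +0.14 (SE 0.35). The ND2 neighbour A_72_P727968 (54 matched bases, 1 substitution, 1 gap) differed by +0.90 (SE 0.39) and the ND1 neighbour A_72_P739924 (51 matched bases, 2 gaps) by +0.92 (SE 0.41). The COX2 neighbour A_72_P751248 matches 47 of 48 aligned bases without a gap and differed by +0.19 (SE 0.29). Its one mismatch is A33T, counted from the 5′ end of A_72_P746371, whose base is given first. The neighbours of ND2 and ND1 thus had the same sign as the named probes, a second ND1 neighbour stood at +0.63, and in each pair the neighbour differed less.

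The opposite pattern was seen for 1 ND1 probe. A_72_P758032 differed by -0.50 (SE 0.28), with F1 TN replicate 4 at 11.70 and the other F1 pigs at 12.55 to 12.91, while its neighbour A_72_P757573, with 54 matched bases and 4 gaps, differed by +0.23 (SE 0.26). Capitals again mark the longest shared run.
ND1 A_72_P758032: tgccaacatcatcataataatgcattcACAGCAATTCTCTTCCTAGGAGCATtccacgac
ND1 A_72_P757573: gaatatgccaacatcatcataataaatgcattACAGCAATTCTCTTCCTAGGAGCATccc

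**Figure D4:**
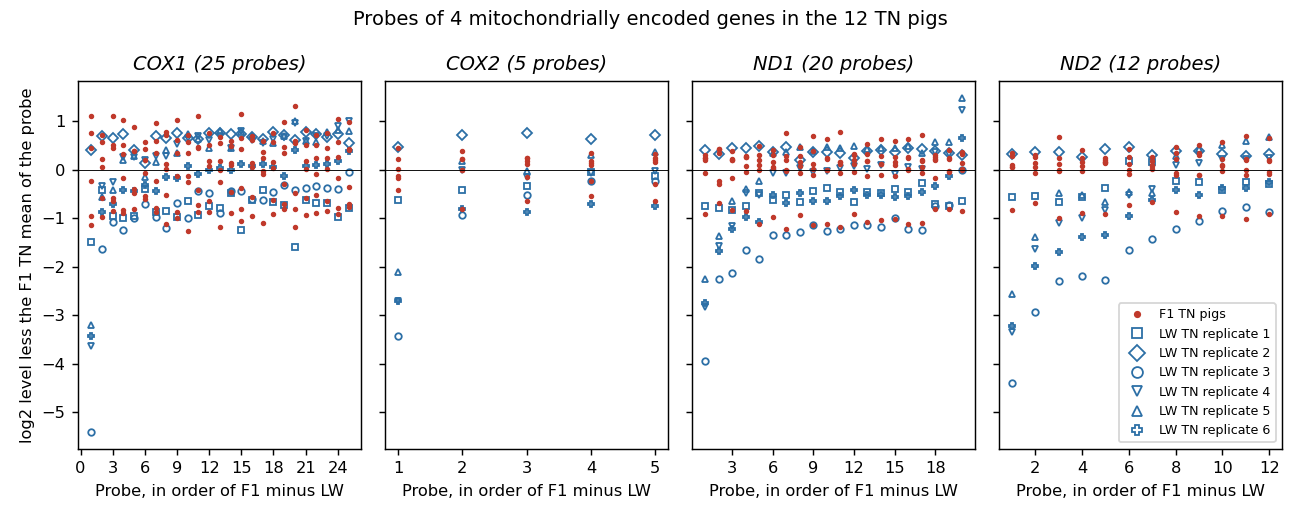
Log2 level of each probe of COX1, COX2, ND1 and ND2 in the 12 TN pigs, less the F1 TN mean of that probe (y axis), with the probes of a gene in order of F1 minus LW (x axis). At the first probe of each gene, LW replicates 3 to 6 lie below all F1 pigs and LW replicates 1 and 2 within or close to the F1 range, while at most other probes both groups mix.

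Large differences of other genes also rested on 1 probe or on some of the pigs. HSPE1, the co-chaperonin of mitochondrial HSP60, was at 6.40, 6.22, 6.73, 9.25, 9.65 and 9.04 in F1 pigs 1 to 6 and at 9.40 to 10.39 in LW pigs by probe O8477, a difference of -2.05 (SE 0.61). Its other 5 probes were between -0.24 and +0.22. SOD2, the superoxide dismutase of mitochondria, differed by -2.10 (SE 0.76) by A_72_P444413, with F1 at 4.78 to 8.02 and LW at 5.24 to 9.35 (-3.58 with the 75th percentile scaling and -1.47 with the array signal as a covariate), and by -0.91 to -0.42 by its other 8 probes. The SOD2 probe stood at -2.09 in HS pigs, so F1 was lower in both climates by that probe, while the gene mean of SOD2 was -0.82 in TN and -0.33 in HS pigs.

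OAZ3, a member of the antizymes that restrain polyamine synthesis, had 3 probes, all below 0. A_72_P437459 was at 5.67 to 7.85 (median 6.91) in F1 and 7.87 to 9.13 (median 8.14) in LW pigs, a difference of -1.52 (SE 0.42) without overlap, and O3277, of the same sequence, stood at -1.48. The third stood at -0.36. In HS pigs the 3 probes were at -1.55, -1.57 and -0.61, so F1 was lower in both climates, in pigs that by the design share litters. PMAP-36 and PMAP-23, antimicrobial peptides of neutrophil precursors, were at +1.95 (SE 1.71) and +1.84 (SE 1.44), with PMAP-36 at 8.34 to 13.49 in F1 and 5.46 to 12.76 in LW pigs, so the spread between pigs covered these differences.

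Differences of at least 2-fold with no overlap between the 6 F1 and 6 LW pigs were found for 11 of 39072 probes, 7 higher and 4 lower in F1. Over all probes, 92 (0.235%) differed by at least 2-fold and 328 (0.839%) did not overlap. Named genes among the 7 were BNIP3L, RBM38 and AQP1, which are known for high levels in maturing red cells. BNIP3L, which directs the removal of mitochondria from reticulocytes, was at 12.07 to 13.32 (median 12.76) in F1 and 11.39 to 12.05 (median 11.62) in LW pigs, a difference of +1.1 (SE 0.30), with its other probes at +0.21 to +0.58. RBM38, an RNA-binding protein of late erythroid splicing, was at 10.43 to 11.37 in F1 and 9.48 to 10.23 in LW pigs, a difference of +1.1 (SE 0.37), but its other probes ran from -0.07 to +1.45. AQP1, the water channel of the red cell membrane, differed by +1.06 (SE 0.31) and +1.01 (SE 0.29) by 2 probes, at 10.47 to 11.20 against 8.85 to 10.19 for the brighter.

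With the array signal as a covariate, these AQP1 differences were +0.50 and +0.49, that of BNIP3L +0.77 and that of RBM38 +1.08. A_72_P443974, described in the files as a protease, differed by +1.42 (SE 0.40), at 9.89 to 11.14 in F1 and 8.33 to 9.44 in LW pigs, and by +0.79 with that covariate. Among the 4 lower ones were OAZ3 and A_72_P402383, at 5.43 to 6.42 against 6.81 to 7.6, a difference of -1.30 (SE 0.28), and -2.10 with the 75th percentile scaling, that stood at +0.44 in HS pigs. A_72_P141666 was well above background in 0 of 6 F1 and 6 of 6 LW pigs, a difference of -1.18 (SE 0.56). The detection floor of an array was taken as its lowest value of any probe well above background. With F1 values held at or above that floor, the normalized values gave 1.99-fold lower in F1, which is not a lower bound over the other fits. The difference was -0.67 with the array signal as a covariate and -3.29 with the 75th percentile scaling, so its size is not fixed by these data. A_72_P195467 differed by -1.05 (SE 0.34).

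The functions of the genes were described through 33 lists, 11 of cell type markers and 22 of pathways, each described by its count of genes and its median difference beside the median of all 9329 genes, which was -0.03. A gene was the mean of its probes, and an unadjusted p under 0.05 was the background of 10.5% of genes higher and 7.1% lower in F1. None of the 33 lists had a member past the adjusted test. The median was positive for 15 lists and negative for 18, and in HS pigs it had the opposite sign for 23 of the 33.

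Most red cell genes had a positive difference. Of 50 genes in 3 erythroid lists, 45 (90%) were above 0, against 45.4% of all genes. Of the 50, 6 had an unadjusted p under 0.05 higher and 0 lower in F1, and a share of 12% higher is near the background of 10.5%. The median was +0.27 for 15 genes of hemoglobin and heme synthesis, +0.22 for 14 of the red cell membrane and skeleton and +0.21 for 21 late erythroid regulators and enzymes. HBZ, an embryonic globin, was at 14.17 to 16.03 (median 15.14) in F1 and 13.78 to 14.93 (median 14.27) in LW pigs, a difference of +0.86 (SE 0.37). EPB42, protein 4.2 of the membrane, was at +0.64 (SE 0.31) and NFE2, a transcription factor of red cells and platelets, at +0.48 (SE 0.22). In HS pigs the 3 medians were -0.49, -0.14 and -0.37, on the other side of 0.

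The mean level of the erythroid lists was 10.26 ± 0.50 in F1 TN and 9.998 ± 0.21 in LW TN pigs (exact permutation test, p = 0.279), so F1 pigs were the more variable and the groups were not separated. The 3 erythroid medians became -0.03, -0.02 and -0.11 with the array signal as a covariate. Leaving out single pigs gave +0.10 to +0.35, +0.07 to +0.31 and -0.02 to +0.31, the value of -0.02 without F1 TN replicate 4. The globin share of the intensity, given with the array signal, was also the higher in F1 TN pigs, and its part in these lists was not tested.

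T cell genes stood on the lower side. Of 19 markers, 18 were below 0, 6 had an unadjusted p under 0.05 lower and 0 higher in F1, and the median was -0.30, against 0.00 in HS pigs. CD3D, a chain of the T cell receptor complex, was at 8.18 to 8.87 (median 8.31) in F1 and 8.79 to 9.51 (median 8.98) in LW pigs, a difference of -0.57 (SE 0.19). CD5 differed by -0.51 (SE 0.18) and CD8A, the coreceptor of cytotoxic T cells, by -0.54 (SE 0.22). The highest F1 pigs reached the lowest LW pigs in each. The T cell median remained below 0 in every alternative run, from -0.37 to -0.17, the latter with the array signal as a covariate.

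Both granulocyte lists had positive medians, and a difference between them was not tested. Of 15 listed markers of eosinophils and basophils 5 were measured, and 4 of these were above 0. Of the 5 measured, 3 had an unadjusted p under 0.05, all higher in F1, and the median was +0.50. It was +0.21 with the array signal as a covariate and +0.76 with the 75th percentile scaling. CCR3, the eotaxin receptor, was at 9.02 to 10.40 (median 9.64) in F1 and 8.41 to 8.97 (median 8.73) in LW pigs, a difference of +0.90 (SE 0.32) with no overlap and 0.00 in HS pigs. GATA2, a transcription factor of basophils and progenitors, differed by +0.72 (SE 0.26) and HDC, which makes histamine, by +0.50 (SE 0.19). Of 20 neutrophil genes 16 were above 0, 1 was higher in F1 at an unadjusted p under 0.05, and the median was +0.14. ELANE, neutrophil elastase, missed that threshold at +0.45 (SE 0.24). Of 14 platelet genes 1 was higher, GP9 at +0.36 (SE 0.17), with a median of +0.21 that ran from -0.04, without F1 TN replicate 6, to +0.41 when single pigs were left out.

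The other white cell lists were near the median of all genes. Monocyte genes (15) had no member of an unadjusted p under 0.05 and a median of +0.08. Of 15 B cell genes 1 was higher, PAX5, the B cell identity factor, at +0.41 (SE 0.18), with a list median of -0.09. Of 21 cytotoxic lymphocyte genes 1 was higher, the receptor CD244, at 9.53 to 9.85 in F1 and 8.98 to 9.52 in LW pigs, a difference of +0.50 (SE 0.17) without overlap. The 3 measured genes of dendritic cells had a median of +0.01. XCR1, a chemokine receptor of these cells, differed by +0.51 (SE 0.24) in TN pigs and stood at -0.64 in HS pigs. TCF4 at -0.09 and IL3RA at +0.01 did not share the TN difference of XCR1.

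Splicing and ribosome genes were below 0 in most members. Of 60 splicing factors 52 were below 0, 16 had an unadjusted p under 0.05 lower and 1 higher, and the median was -0.21, against +0.06 in HS pigs. SNRNP70, of the U1 particle, was at 12.35 to 13.19 (median 12.99) in F1 and 13.16 to 13.55 (median 13.41) in LW pigs, a difference of -0.50 (SE 0.16). PRPF8, the core of the spliceosome, differed by -0.34 (SE 0.11) and DHX38 by -0.36 (SE 0.12). The splicing median was -0.06 with the array signal as a covariate and stayed between -0.24 and -0.15 when single pigs were left out.

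Of 43 ribosome biogenesis genes, 7 had an unadjusted p under 0.05 lower and 0 higher (median -0.10, and -0.05 with the array signal as a covariate), with LTV1, of the small subunit, at -0.34 (SE 0.11) and FBL, fibrillarin, at -0.27 (SE 0.12). Translation factors (44) had 3 lower and 0 higher and a median of -0.11, and EEF1A1, the elongation factor, differed by -0.37 (SE 0.18) with all 21 probes below 0. Cytosolic ribosomal proteins (70) had 4 lower and 2 higher and a median of -0.08, which was +0.08 when processed intensities were scaled on the 75th percentile. RPL27, of the large subunit, was at 13.49 to 14.00 in F1 and 13.84 to 14.05 in LW pigs, a difference of -0.27 (SE 0.11). Mitochondrial ribosomal proteins (55) had 4 in each direction, with a median of -0.12, and -0.03 with the array signal as a covariate.

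Both heat shock lists had negative medians. Of 14 genes of the HSP90, HSP70 and HSP110 families, 3 had an unadjusted p under 0.05 lower and 0 higher in F1, and the median was -0.17, with +0.13 in HS pigs and -0.08 in TN pigs with the array signal as a covariate. HSPA5, the BiP chaperone, was at 9.51 to 9.83 (median 9.63) in F1 and 9.85 to 10.07 (median 10.02) in LW pigs, a difference of -0.32 (SE 0.08) with no overlap. HYOU1 differed by -0.36 (SE 0.11) and HSP90B1, or GRP94, by -0.40 (SE 0.18) with all 10 probes below 0. The list of HSP40, small HSP and chaperonin genes (43) had 4 in each direction and a median of -0.11, with DNAJC7 at -0.52 (SE 0.21) and DNAJA3 at -0.39 (SE 0.14).

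Immune pathways showed few differences. Of 35 interferon-stimulated genes, 1 was lower, GBP2 at -0.43 (SE 0.19), and the median was +0.02. Of 31 genes of toll-like receptors and inflammatory cytokines, 5 were higher and 0 lower, among them IRAK1 at +0.48 (SE 0.20), TLR9 at +0.31 (SE 0.13) and CCL4 at +0.36 (SE 0.16). The list as a whole was not shifted up, with 14 genes above and 17 below 0 and a median of -0.03. Class I antigen presentation (15 genes) had a median of -0.15 and 1 lower member, SLA-6, at 8.25 to 9.83 in F1 and 9.23 to 10.43 in LW pigs, a difference of -0.71 (SE 0.22), with -0.59 in HS pigs. SLA genes are highly polymorphic and alike, so a probe can measure 1 allele or gene better than another. Class II presentation (13) had a median of -0.09, with 10 genes below and 3 above 0. RFXANK, a regulator of class II genes, was among those above, at +0.46 (SE 0.21).

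Metabolic lists had medians between -0.11 and 0.01. The median was 0.01 for 34 antioxidant genes, where SRXN1, sulfiredoxin, stood at +0.62 (SE 0.20), and 0.00 for 34 genes of glycolysis and the pentose phosphate pathway. It was -0.11 for 67 respiratory chain and ATP synthase genes, 49 of them below 0, and -0.03 with the array signal as a covariate, with NDUFS1, of complex I, at +0.40 (SE 0.15) and ATP5G3 at -0.30 (SE 0.13). Lysosome (56 genes) and proteasome (44, of which 33 below 0) lists had medians of -0.04 and -0.07, with LAPTM5, a lysosomal protein of white cells, at -0.43 (SE 0.19) and PSMF1, a proteasome inhibitor, at +0.59 (SE 0.21). Polyamine genes (15) had 3 lower and 0 higher, OAZ3 among them, with SAT1 at -0.34 (SE 0.15) and PAOX at -0.32 (SE 0.15).

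Among 28 genes of autophagy and the clearance of mitochondria, 6 had an unadjusted p under 0.05 higher and 3 lower in F1 (median +0.07). GABARAPL1, of autophagosome formation, was at 9.37 to 10.60 (median 9.73) in F1 and 8.52 to 9.79 (median 8.95) in LW pigs, a difference of +0.80 (SE 0.26), and UVRAG differed by +0.57 (SE 0.22). Of 15 clock genes 3 were lower and 0 higher (median -0.12, with +0.11 in HS pigs). The TN median was -0.005 with the array signal as a covariate and -0.24 with the 75th percentile scaling. ARNTL, the BMAL1 factor of the clock, differed by -0.38 (SE 0.13) and HLF, a clock output factor, by -0.31 (SE 0.12) with no overlap. The hour of sampling is not in the labels.

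Of 20 immediate early genes 3 were higher and 2 lower, with EGR3 at +0.35 (SE 0.16) and IER2 at -0.33 (SE 0.14). Of 31 cell cycle genes 2 were higher, E2F1 at +0.59 (SE 0.27) and CDC6 at +0.50 (SE 0.22). Glucocorticoid targets (15) had 1 higher member, ZBTB16 at +0.25 (SE 0.10). The median was +0.08 for immediate early and glucocorticoid genes alike and +0.07 for the cell cycle.

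**Figure D5:**
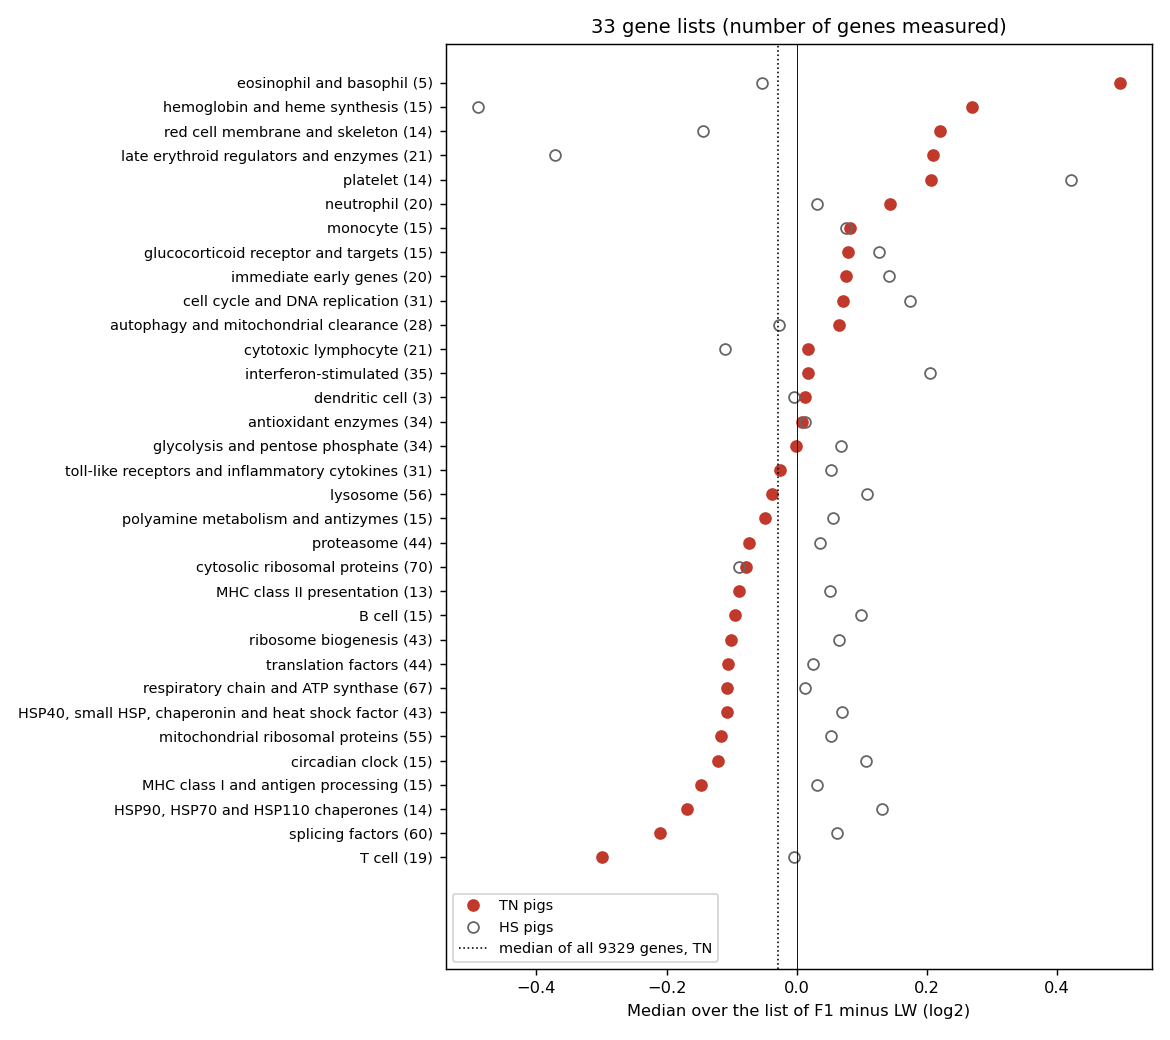
Median F1 minus LW difference (log2) over each of the 33 gene lists, with the number of genes measured in brackets, for TN pigs (filled) and HS pigs (open), and the median of all 9329 genes in TN pigs (dotted line). Eosinophil and basophil (+0.50) and red cell lists lie highest and T cell (-0.30) and splicing (-0.21) lists lowest in TN pigs, and 23 of the 33 medians have the opposite sign in HS pigs.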

How the data were processed

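According to the submitters' processing notes, Agilent Feature Extraction (version 10.10.1.1) read the arrays. Spot intensity in the deposited scanner output was not normalized between arrays. The deposited table holds log2 values, for which the authors quantile-normalized the median intensity of spots and applied a filter on expressed probes, whose rule is not given in the sources used here. Recomputed values had a Pearson correlation of 0.99997 with it. Of 39072 probes, 19077 were named with 1 symbol (9329 genes).

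Each probe was fitted with limma 3.58.1 (lmFit and eBayes, R 4.3.3) on the means of 6 groups over 35 pigs, without covariates, since pen, day, sire and dam have no labels. P-values are two-sided and adjusted by the Benjamini-Hochberg procedure (threshold 0.05). Array measures were tested by exact permutation. In a test on simulated data for this contrast over 39072 probes, 86% of simulated 2-fold rises and 30% of rises of 0.5 (log2) were called, with 6 false calls. The simulated noise was independent between probes, without shifts shared by the probes of an array. These shares therefore check the code and do not give the power in the real arrays, where 92 probes differed by at least 2-fold and 0 were called. The members and gene lists were chosen with earlier results of these data known. Genes were named by a rule: non-overlapping probes past the threshold, and, where these were lacking, the 12 genes of smallest unadjusted p in each direction, plus 3 probes without a gene name and up to 3 genes per list. The mitochondrial, SOD2, HSPE1 and OAZ3 probes and those with at least 2-fold differences without overlap were chosen after their values were seen. Alternatives changed the normalization, background correction (normexp, offset 50), filters, slide, array weights, covariates, samples and gene value. Some genes are not reported here. No coordinates are given because no genome was used here. The number of arrays limits the precision.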

Additional observations from a re-analysis of the deposited data

Results flagged for a closer look

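A pig that stood apart from the other 5 of its group by Dixon's test at the 95% level was found in 26 of 364 groups of values tested, where chance alone gives about 5% of groups. The values of the pig and the range of the other 5 are given on the log2 scale, and no explanation was tested.

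Among the genes named in the comparison, IGF1 was at 9.43 in F1 TN replicate 5 (others 7.27 to 8.04). RGS2 was at 11.47 in LW TN replicate 1 (others 12.15 to 12.47), and at 10.30 by another RGS2 probe (others 11.00 to 11.33). RNF20 was at 8.05 in LW TN replicate 3 (others 7.35 to 7.49). AQP1 was at 8.85 in LW TN replicate 3 by probe O8316 (others 9.76 to 10.19), and DOK2, an adaptor of lymphocyte and myeloid signalling, at 11.78 in LW TN replicate 1 (others 11.97 to 12.07). HSPE1 was at 10.41 in LW TN replicate 5 by A_72_P725658 (others 9.75 to 9.95).

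F1 TN replicate 4 was the lowest F1 pig by 4 mitochondrial probes, at 12.06 for ND2 A_72_P719508 (others 12.95 to 13.24), 11.06 for ND2 A_72_P737152 (others 11.69 to 12.05), 11.00 for ND1 A_72_P745561 (others 11.85 to 12.22) and 11.70 for ND1 A_72_P758032 (others 12.55 to 12.91). Its median level over 111 further mitochondrial probes was 12.99, against 13.94 to 14.33 in the other F1 pigs, so the low values ran across the mitochondrial probes. The same pig was lowest for HK1 at 11.22 (others 11.79 to 11.98), and highest for ATP6V0B at 11.70 (others 11.27 to 11.40) and EGR3 at 6.46 (others 5.88 to 6.06).

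Single spots far from the rest were seen for A_72_P278554, at 19.01 in LW TN replicate 4 (others 5.04 to 5.60), the highest value of the authors' table, and for SLC34A1, at 16.04 in F1 TN replicate 1 (others 5.50 to 6.50). The unnamed probe A_72_P212732 was at 8.28 in F1 TN replicate 3 (others 5.42 to 6.13) and at 5.83 in LW TN replicate 2 (others 8.10 to 8.99), so 1 pig of each breed lay at the level of the other breed. OTTSUST00000001126 was at 5.32 in LW TN replicate 3 (others 5.09 to 5.17).

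LW TN replicate 3 was also the highest LW pig for CD3D at 9.51 (others 8.79 to 9.01) and for the interferon-stimulated GTPases GBP2 at 10.38 (others 8.99 to 9.41) and GBP1 at 11.55 (others 9.81 to 10.38), and the lowest for EGR3 at 5.26 (others 5.73 to 5.87). ARG1, arginase of granulocytes, was at 11.54 in LW TN replicate 5 (others 12.28 to 12.60). LW TN replicate 6 was at 5.79 for PEAR1 (others 5.56 to 5.64) and 8.35 for PSMA5 (others 8.51 to 8.60).

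The F1 minus LW difference was not the same in TN and HS pigs for 5 of 9 array measures, by exact permutation with an adjusted p under 0.05. The difference in TN less that in HS was -0.68 for the log2 75th percentile of processed intensity and -5.74 percentage points for probes well above background. It was +1.40 percentage points for the share of the 10 brightest probes, +0.153 for the globin share and -76.8 for the first principal component. In each, the F1 minus LW difference had opposite signs in the 2 climates.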

How the results depend on the processing

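The count of called probes in TN pigs, 0 in the comparison as reported, was 2 with only the 12 TN pigs, 1 with processed intensities scaled on the 75th percentile (A_72_P325853, at -1.70 there), and 0 to 4 when 1 pig was left out, 4 without F1 TN replicate 6. In TN pigs no gene was called in any alternative. Gene calls of the other contrasts were 20 in HS and 1036 for the difference between climates with array weights, and 1 in HS with the erythroid covariate. For HS pigs the count of 3 was 0 with slide as a fixed block, 80 with array weights, 8 with the erythroid mean as a covariate and 3 without single TN pigs. For the difference between climates the count of 0 was 1 with the 75th percentile scaling, 3902 with array weights and 0 without single pigs. The 6702 probes of unadjusted p under 0.05 in TN were 4204 with the erythroid covariate, 1022 with the array signal covariate and 3661 to 8407 without single pigs. The causes were not tested. The 24 named genes had the same sign in all 23 alternatives. They were chosen by the p of this same contrast, and 12 of the alternatives only leave out 1 pig, so the kept sign is not separate support. The log2 75th percentile difference was -0.52 to -0.37 without single pigs, with an adjusted exact permutation p of 0.0455 without F1 TN replicate 6 to 0.205 at most, and the percentage well above background -4.40 to -2.66. The spike-in difference, -0.037, was -0.124 to +0.042 without single pigs. A_72_P278554 (-2.18) became 0.080 with recomputed values in which marked spots were missing, with or without the filter, 0.023 with normexp and -2.69 to +0.10 without single pigs. HSPE1 A_72_P752325 (+0.03) was -0.055 to +0.112 without single pigs. With the array signal as a covariate 28 of the 33 list medians were nearer 0 and 8 had the other sign. The cytosolic ribosomal protein median became positive with the 75th percentile scaling. No paired analysis was possible because the labels number no replicates and the numbers used here follow the sample records.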

Other observations

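The IGF1 gene had a second view in these data. Its 2 probes that share 58 bases differed by +0.97 and +0.56, so 2 readings of nearly the same sequence gave the same sign and different sizes. Like-signed values across pairs were usual for the identical probes of the table, at 90.6% of 1286 pairs.

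Values of the mitochondrial probes in the CR pigs belong to no comparison above. The COX1 probe A_72_P762153 ran from 7.32 to 12.6 in the 5 CR TN pigs, a span much like the 7.04 to 12.84 of the LW TN pigs. In HS pigs the probe was at 12.6 to 13.7 in F1 and 7.14 to 12.9 in LW.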
